A study of Mus musculus with 31 samples.

Results

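The response of Cgas-null microglia to tau fibrils was measured by comparing 3 libraries of tau-treated cells with 3 libraries of vehicle-treated cells, which are 6 of the 18 libraries of primary microglia and of the 31 libraries in the whole series. The members of the comparison were the 13675 genes that passed a filter on low counts, out of 54532 in the count table. The cells were primary microglia taken from the cortices of mouse pups on postnatal days 1 to 3, separated from mixed glial cultures to which GM-CSF, a growth factor that acts on microglia, had been added, and then plated in medium with serum. The null cells carried the Cgas KO genotype (Cgas-/-) and the wild-type cells, used here only as a reference, were Cgas+/+. Cells received vehicle, 2 µg/ml of fibrils of 0N4R tau, or 1 µg/ml of herring testis DNA (HT-DNA), and RNA was taken 6 h later. Every group had 3 libraries. The controls are called vehicle in the labels and not treated in the study's methods, so whether they received a mock addition is uncertain. Nothing in the labels gives the strain, the sex of the pups, the litters or the culture preparations. The p-values therefore measure the spread between libraries that may share cultures or animals, although the study's legends call the samples biologically independent. The study asked whether cGAS mediates the interferon response to tau, and the null cells bear on that question.

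cGAS is an enzyme that binds double-stranded DNA in the cytosol and makes a cyclic dinucleotide, which activates the adaptor STING and, through the kinase TBK1 and the factor IRF3, the transcription of type I interferon. Interferon then acts on its receptor, and JAK kinases and STAT factors switch on a large set of interferon-stimulated genes. A second branch of innate signaling, from Toll-like receptors and cytokine receptors, runs through NF-kB and gives cytokines, chemokines and its own inhibitors, and many genes take input from both branches.

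The null libraries held 17037459 to 21571281 counts with vehicle and 22335705 to 25174764 with tau. Levels are given as CPM, the counts of a gene relative to the library's total as scaled by the TMM method, and a fold change is the log2 ratio of tau to vehicle from edgeR's quasi-likelihood test, with adjusted p by the Benjamini-Hochberg method. Cgas itself was at 4.07, 5.47 and 5.23 CPM in the vehicle libraries of null cells and 7.45, 6.83 and 7.04 CPM in their tau libraries, against 27.2, 18.8 and 23.5 CPM in wild-type cells with vehicle. The null libraries were all below the wild-type ones, but reads of Cgas remained. Which exons the allele removes is not given in the sources used here, so the remaining reads could not be placed. Mapt, the mouse gene for tau, had 2 to 5 counts in each of the 6 null libraries.

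The labelled cell type was checked against its markers. All 16 microglia and macrophage markers were detected, with a summed level of 9393 to 9518 CPM with vehicle and 9689.8 to 9864 CPM with tau. The summed level of 10 astrocyte markers was 6.15 to 7.59 CPM with vehicle and 6.62 to 8.64 CPM with tau, and that of 11 neuron markers was 0.924 to 2.73 and 1.06 to 1.28 CPM. Of 12 oligodendrocyte markers, Olig2 had no count in the 6 libraries and 1 gene, Cspg4, held most of a sum of 568 to 615 CPM with vehicle and 578 to 635 CPM with tau. Of 8 fibroblast markers, Fn1, which macrophages also express, held most of a sum of 5903 to 6701 CPM with vehicle and 5541 to 6678 CPM with tau. The 6 endothelial markers summed to 27.5 to 32.7 and 30.3 to 34.1 CPM. The 8 neutrophil markers summed to 4.33 to 5.08 CPM with vehicle and 4.82 to 5.16 CPM with tau, and Ly6g, Mpo, Retnlg and S100a9 had no count. The 6 T cell markers summed to 2.68 to 4.38 and 4.32 to 5.13 CPM, and Cd3d and Cd8a had no count. The mitochondrially encoded mRNAs summed to 17452 to 18254 CPM with vehicle and 16086 to 18240.0 CPM with tau. The part of these markers in the results was not tested. Sex-linked genes differed between the genotypes. The 4 Y-linked genes looked at were higher in null than in wild-type cells with vehicle (background 24.7%), and Xist, which only female cells express, was lower. Eif2s3y was at 47.4, 44.1 and 45.1 CPM in null and 18.2, 20.7 and 15.8 CPM in wild-type cells with vehicle, and Xist at 266, 255 and 269 and 473, 520.3 and 467 CPM. The groups did not overlap in either gene, and a difference between the genotypes in the shares of male and female cells cannot be told apart from the genotype itself. Within null cells, Eif2s3y was at 46.8, 45.4 and 42.6 CPM and Xist at 300.2, 285 and 264 CPM with tau, and none of the 5 genes passed the test of tau against vehicle. In bulk RNA, fewer cells of a type and less RNA per cell cannot be told apart.

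Tau changed many genes in null cells, mostly upward. With the adjusted p required to be under 0.05 and the change to exceed 1 log2 unit, 336 genes rose (2.46% of those tested) and 38 fell (0.278%). Without the limit on fold change, 1533 rose (11.2%) and 749 fell (5.48%). The median log2 fold change over all genes tested was 0.01. In 2380 genes (17.4%) all 3 tau libraries lay above all 3 vehicle libraries. The count of genes that fell by more than 1 log2 unit dropped from 38 to 21 without replicate 1 of the vehicle group.

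**Figure D1:**
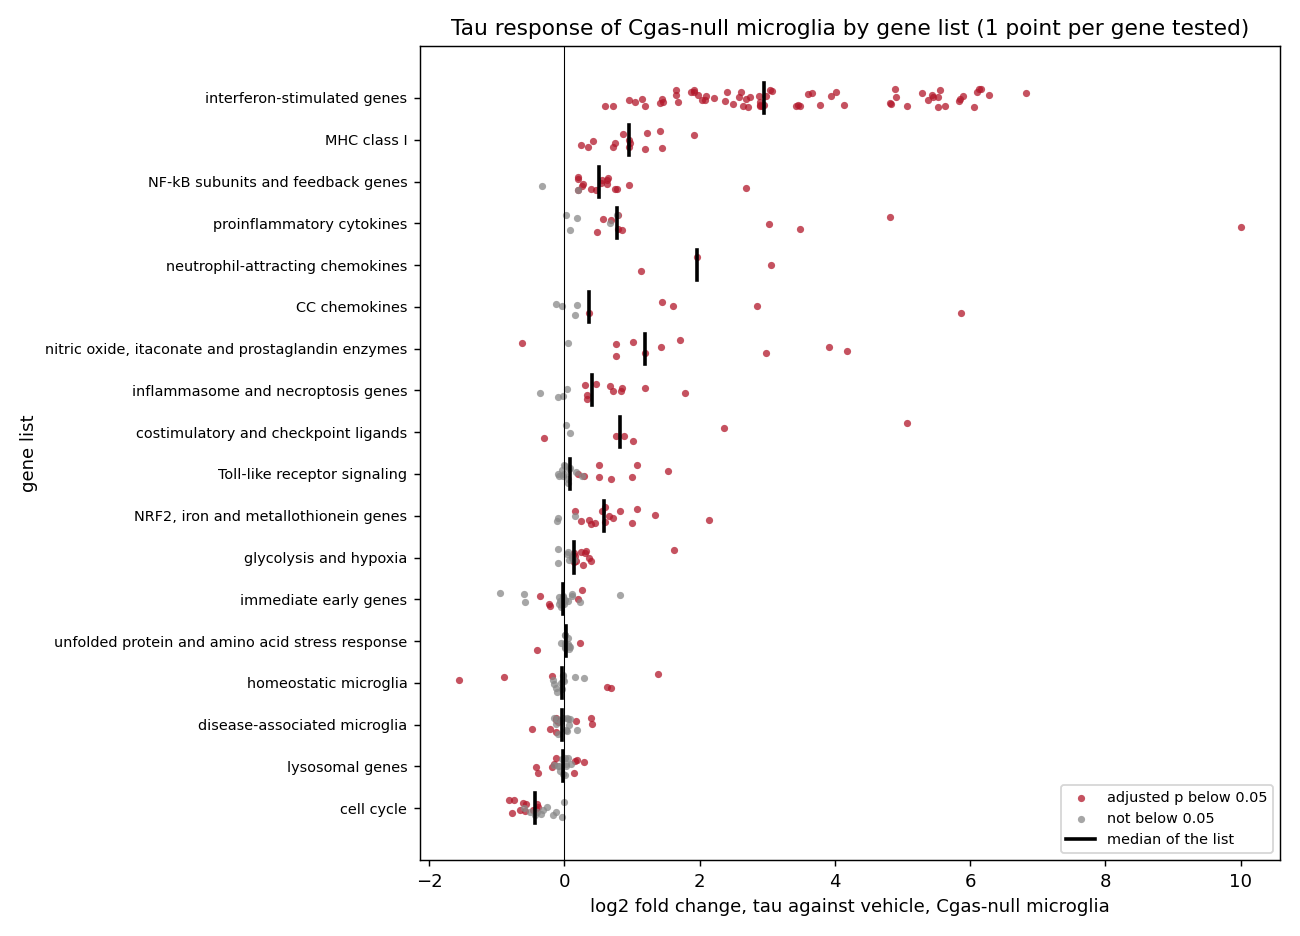
Log2 fold change of tau against vehicle in Cgas-null microglia (horizontal axis) for the genes tested in each of 18 lists (1 point per gene, red where the adjusted p is below 0.05, grey otherwise, black bar at the list's median). The interferon-stimulated genes lie furthest to the right, with a median of 2.96, and the immediate early, lysosomal and disease-associated genes sit around 0.

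Interferon-stimulated genes rose throughout the list. Of 69 such genes tested, 69 rose in null cells (background 11.2%), 66 of them by more than 1 log2 unit, with a median log2 fold change of 2.96 beside 0.01 over all genes tested. In each of the 69 genes the 3 tau libraries lay above the 3 vehicle libraries (17.4% of all genes tested). The list was written with earlier results of these data known, so its counts are not independent evidence of its direction. Of its genes, 7 are ones the study itself picked from these libraries. All 7 rose, with a median of 2.64. Of the 69 genes, 3 (Ifi44, Iigp1 and Slfn1) had 3 counts or fewer in every vehicle library, and the list's median was the same with these genes set at their lower bound.

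The antiviral genes of this list with the largest rises began at a few CPM. Ifit3, which encodes a member of a family of antiviral proteins, was at 1.23, 1.72 and 1.32 CPM with vehicle and 126, 101 and 106 CPM with tau, a log2 fold change of 6.28 ± 0.32 (SE, n = 3; adjusted p = 3.43e-15, edgeR). Its relatives Ifit2 and Ifit1 were at 4.52, 7.71 and 5.45 CPM and 1.95, 2.55 and 1.76 CPM with vehicle. With tau they were at 469, 404 and 397 CPM and 150.3, 134 and 129 CPM. The groups did not overlap in any of these 3 genes. Rsad2, which encodes viperin, an enzyme that makes a chain-terminating nucleotide, was at 3.57, 8.81 and 6.16 CPM with vehicle and 435, 456 and 414 CPM with tau (6.13 ± 0.33 log2 units, adjusted p = 1.21e-14, edgeR). Cmpk2, its neighbor in the same nucleotide pathway, was at 1.9, 4.69 and 2.16 CPM and 166, 168 and 164 CPM. The GTPase Mx1 was at 1.23, 1.62 and 1.45 CPM with vehicle and 66.2, 61.4 and 62.3 CPM with tau, and Isg15, a ubiquitin-like modifier, at 1.9, 3.75 and 3.21 and 94.6, 88.4 and 86.6 CPM. Rtp4, an interferon-induced chaperone of receptors, was at 0.558, 1.41 and 0.88 CPM and 48.3, 44.1 and 40.6 CPM. In each of these genes every tau library lay above every vehicle library.

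Among the genes with the largest rises, several were close to or at the counting floor in vehicle cells. Il12b, the p40 subunit of IL-12 and IL-23, had no read in the 3 vehicle libraries and 145, 139 and 158 counts in the 3 tau libraries, so it was at least 40.4-fold higher against a floor of 3 counts per library. Iigp1, an immunity-related GTPase, had 1, 1 and 0 counts with vehicle and 111, 100 and 109 with tau, at least 29.3-fold higher. Gm4951, of the same GTPase family, was at least 48.1-fold higher, and the PYHIN family gene Ifi213 at least 48.1-fold higher. Its relative Ifi205 was at 0.167, 0.417 and 0.176 CPM with vehicle and 20.6, 15.4 and 16.8 CPM with tau. Oasl1, which encodes a 2′-5′ oligoadenylate synthetase-like protein, was at 0.167, 0.208 and 0.176 CPM and 12.4, 11 and 10.6 CPM, and Gbp5, a guanylate-binding protein, at 0.335, 0.73 and 0.66 CPM and 33.8, 33.4 and 34.7 CPM. Ifit1bl1 and Ifit3b, close copies of Ifit1 and Ifit3, had log2 fold changes of 5.62 and 5.55, and reads may be split between such copies, as between members of the Gm4951 and Ifi213 families. Apart from Il12b, the 15 largest rises by the naming rule were of genes known to be induced by interferon or of close relatives of such genes.

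Regulators and sensors of the interferon pathway rose as well. Irf7, the factor that amplifies type I interferon, was at 3.63, 4.69 and 4.62 CPM with vehicle and 135, 122 and 113 CPM with tau (4.83 ± 0.17 log2 units, adjusted p = 4.46e-18, edgeR). The RNA sensor gene Ddx58 (RIG-I) was at 12.1, 15.2 and 13.4 CPM with vehicle and 118, 113 and 111 CPM with tau, and the nucleic acid sensor gene Zbp1 at 1.9, 3.54 and 3.08 and 52.9, 44.5 and 42.4 CPM. Usp18, which removes ISG15 and dampens the receptor, was at 2.29, 2.5 and 1.45 CPM and 84.7, 77.9 and 76.9 CPM. Factor, sensors and negative regulator rose together, and the smallest of these steps was that of Ddx58, 8.39-fold. The smallest rise on the list was that of Psmb10, a subunit of the immunoproteasome, at 0.60 ± 0.06 log2 units.

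Interferon transcripts themselves were hardly read. Ifnb1 had 0, 0 and 0 counts in the vehicle libraries and 1, 0 and 0 in the tau libraries of null cells, so a difference was not detectable at this depth. The other 5 interferon genes looked for did not pass the filter on low counts. The receptor and kinase genes were expressed throughout. Of 11 genes for interferon receptors, JAK kinases and SOCS proteins, 6 rose (background 11.2%), with a median of 0.18. Socs1, an inhibitor of JAK kinases, was at 2.07, 1.98 and 1.72 CPM with vehicle and 6.04, 6.7 and 4.73 CPM with tau (1.60 ± 0.21 log2 units, adjusted p = 1.18e-06, edgeR).

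The same genes were compared with wild-type cells to place these levels. In vehicle-treated cells all 69 interferon-stimulated genes were lower in null than in wild-type cells, where 27.3% of all genes tested were lower, with a median log2 difference of -3.46. In tau-treated cells all 69 were again lower in null cells, against 26.2% of all genes, with a median log2 difference of -1.75. The rise in log2 units was larger in null cells. The median over the list was 2.96 in null and 1.30 in wild-type cells, and the interaction of genotype and tau was above 0 for 62 of the 69 (background 3.61%) and below 0 for 1, Psmb10 (background 3.31%). On the linear scale the order turned round. The gain in mean CPM from vehicle to tau was smaller in null cells for 67 of the 69 genes, all but Irf9 and Trim25. Its median was 41.4% of the wild-type gain. The share of all genes tested with a smaller gain was not counted. Null cells thus had the larger log2 response, and lower levels both before and after tau. Other lists also differed between the genotypes with vehicle. In null cells 16 of 18 homeostatic microglia genes were lower and 0 higher. Of 22 cell cycle genes 17 were lower and 1 higher, and of 16 microglia and macrophage markers 12 and 1. All 14 unfolded protein and amino acid stress genes were higher (background 24.7%). The part of these differences in the comparison of tau responses was not tested.

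Single genes showed how close the levels came. Ifit3 was at 582, 247 and 389 CPM in wild-type cells with vehicle and 1302, 1023 and 1283 CPM with tau, so the 3 tau-treated null libraries stayed below each of the untreated wild-type libraries. Rsad2 was at 1067, 377 and 714 CPM and 3488, 2656 and 3677 CPM in wild-type cells, where replicate 2 with vehicle lay below the tau-treated null libraries and the other 2 above them. Isg15 was at 147, 70.5 and 109 CPM with vehicle, a range that held the tau-treated null libraries, and 472, 369.7 and 478 CPM with tau. For 26 of the 69 genes all tau-treated null libraries lay below all vehicle-treated wild-type libraries, and for 0 of the 69 did they lie above. The same shares over all genes tested were not counted, so these 2 counts have no background beside them. The vehicle-treated wild-type libraries spread widely in Ifit3, Rsad2 and Isg15, with replicate 2 lowest for each. Without each library in turn, 56 to 64 of the 69 interactions passed the test above 0, the highest count being that without this library.

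**Figure D2:**
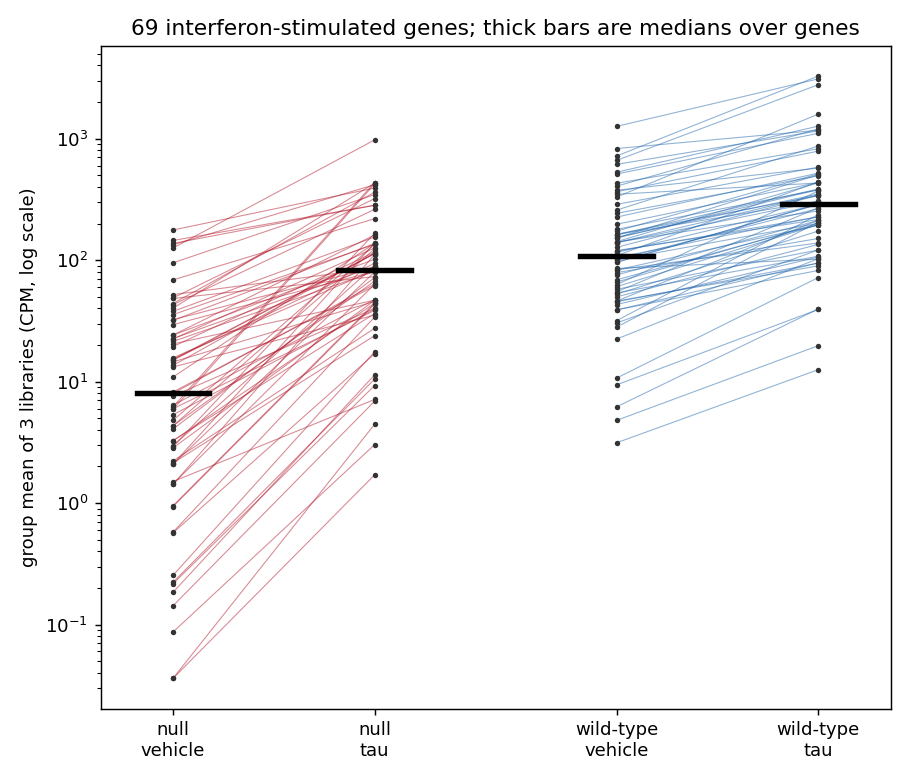
Group means (CPM, log axis) of the 69 interferon-stimulated genes in null and wild-type microglia with vehicle and with tau, with 1 point and 1 line per gene and thick bars at the median over genes. The median went from 7.99 to 82.8 CPM in null cells and from 109 to 287 CPM in wild-type cells, so null cells with tau stayed below wild-type cells with vehicle at the median.

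The promoters of 2 of these genes (Ifit3 and Rsad2), of the interferon-induced chemokine gene Cxcl10 and of 2 NF-kB targets are shown because both kinds of gene rose, to different extents. The sequences are the 250 bases before the start site, from RefSeq on GRCm38.p6, read 5′ to 3′ on the gene's strand. In the first 3, capitals mark GAAANNGAA, the core of the interferon-stimulated response element (ISRE), on either strand. In the last 2, capitals mark the kappaB motif on either strand, and in Cxcl2 a pair of overlapping matches on opposite strands form 1 run. Each sequence was marked for 1 of the 2 motifs only, so unmarked letters can match the other motif. Cxcl10 also holds matches to the kappaB motif that are not in capitals, gggaaattcc and gggacttccc among them.
Ifit3 (chr19:34583279-34583528, + strand): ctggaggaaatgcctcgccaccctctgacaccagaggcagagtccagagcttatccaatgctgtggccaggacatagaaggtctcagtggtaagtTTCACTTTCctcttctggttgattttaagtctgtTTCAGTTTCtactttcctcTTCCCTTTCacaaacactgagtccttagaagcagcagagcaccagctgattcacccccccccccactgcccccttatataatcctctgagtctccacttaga
Rsad2 (chr12:26456453-26456702, - strand): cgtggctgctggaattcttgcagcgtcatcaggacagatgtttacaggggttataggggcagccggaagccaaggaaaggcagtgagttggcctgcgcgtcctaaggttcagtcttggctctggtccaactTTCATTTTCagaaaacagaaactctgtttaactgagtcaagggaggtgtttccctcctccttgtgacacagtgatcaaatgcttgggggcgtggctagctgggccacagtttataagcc
Cxcl10 (chr5:92348890-92349139, - strand): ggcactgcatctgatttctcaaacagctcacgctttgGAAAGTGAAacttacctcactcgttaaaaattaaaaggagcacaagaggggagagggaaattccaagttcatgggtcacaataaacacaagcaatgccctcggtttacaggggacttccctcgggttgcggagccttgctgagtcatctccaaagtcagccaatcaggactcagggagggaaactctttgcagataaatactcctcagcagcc
Cxcl2 (chr5:90903649-90903898, + strand): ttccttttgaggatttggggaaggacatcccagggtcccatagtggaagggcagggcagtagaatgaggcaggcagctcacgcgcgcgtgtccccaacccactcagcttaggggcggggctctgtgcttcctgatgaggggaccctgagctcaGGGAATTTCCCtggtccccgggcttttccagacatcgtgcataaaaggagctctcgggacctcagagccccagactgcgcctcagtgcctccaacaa
Nfkbia (chr12:55492648-55492897, - strand): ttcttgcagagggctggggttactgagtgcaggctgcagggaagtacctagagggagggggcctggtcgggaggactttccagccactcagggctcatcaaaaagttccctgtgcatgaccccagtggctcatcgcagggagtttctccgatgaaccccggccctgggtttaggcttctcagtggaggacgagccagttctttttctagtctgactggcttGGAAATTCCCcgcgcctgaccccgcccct
Ifit3 held 3 ISRE cores, starting 155, 121 and 102 bases before the start site, and Rsad2 and Cxcl10 held 1 each, 119 and 213 bases before it. Over all 32851 promoters of 300 bases in the table (250 before and 50 after the start), 8.56% held an ISRE core and 8.46% the kappaB motif on either strand. A match is a run of letters and not a measured binding site. The table held promoters for 249 of the 336 genes that rose, which is too few for a count over the set.

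Herring testis DNA, the ligand of the missing enzyme, gave a second reference in null cells. HT-DNA against vehicle changed 3 genes by more than 1 log2 unit in null cells, 2 up and 1 down (edgeR, adjusted p under 0.05). At any fold change 142 genes (1.04%) were higher with HT-DNA, and those lower were not counted. At an unadjusted p under 0.05, 1688 genes differed in either direction. Against HT-DNA, tau raised 326 genes (2.38%) and lowered 21 (0.154%) by more than 1 log2 unit. This comparison shares the 3 tau libraries with the one against vehicle. Of the 69 interferon-stimulated genes, 69 were higher with tau than with HT-DNA (background 10.3%), 64 of them by more than 1 log2 unit (background 2.38%). Their median was 2.81, beside 0.00 over all genes. Ifit3 was at 1.7, 5.26 and 1.8 CPM with HT-DNA and Isg15 at 4.19, 5.38 and 3.8 CPM. Both were far below the tau libraries, and replicate 2 of HT-DNA was the highest in each.

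The inflammatory genes of null cells rose less evenly. Of 15 proinflammatory cytokine genes tested, 10 rose (background 11.2%) and none fell, with a median of 0.78. Il1b, the gene of interleukin 1β, was at 1.17, 0.678 and 1.41 CPM with vehicle and 13, 12.8 and 11.3 CPM with tau (3.48 ± 0.26 log2 units, adjusted p = 1.14e-11, edgeR). Il6 was at 0.223, 0.261 and 0.044 CPM and 1.41, 1.68 and 1.17 CPM, on few reads, and Tnfsf15, a TNF family cytokine at the counting floor in vehicle cells, was at least 10.3-fold higher with tau. Tnf was at 27.3, 33.2 and 33.7 CPM with vehicle and 47.4, 48 and 57.1 CPM with tau, a rise of 0.69 ± 0.10 log2 units (adjusted p = 6.4e-06, edgeR). Wild-type cells went from 24.2, 21.1 and 20.2 to 97.8, 76 and 105 CPM of Tnf, and the interaction was -1.40 (adjusted p = 1.59e-07, edgeR). Null cells thus lay above wild-type cells for Tnf with vehicle and below them with tau. Il1a was higher in null cells under both treatments, at 38.8, 38.7 and 37.8 CPM with vehicle and 57.2, 53.3 and 49.9 CPM with tau in null cells and 12.8, 14.5 and 10.4 and 30.4, 28.8 and 38 CPM in wild-type cells.

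Chemokines of each class were among the genes that rose. The 3 neutrophil-attracting chemokines tested all rose (background 11.2%). Cxcl2 was at 7.65, 6.57 and 8.23 CPM with vehicle and 15.2, 15.8 and 18.2 CPM with tau, and Cxcl3 at 0.837, 1.04 and 1.8 and 10.7, 9.93 and 10.8 CPM. Cxcl1 was at 0.391, 0.208 and 0.352 CPM and 1.37, 1.21 and 1.17 CPM. The groups did not overlap in these 3 genes, although Cxcl1 had fewer than 10 counts in each vehicle library. Of 9 CC chemokines, 5 rose (background 11.2%). Ccl5, a chemokine for T cells that interferon also induces, was at 0.335, 1.04 and 0.176 CPM with vehicle and 32, 28 and 29 CPM with tau (5.87 ± 0.23 log2 units, adjusted p = 2.75e-17, edgeR), and Ccl2, which draws monocytes, at 4.97, 6.98 and 5.23 and 18.7, 15.4 and 12.8 CPM. Ccl3 and Ccl4, the macrophage inflammatory proteins, did not pass the test, with log2 fold changes of 0.19 ± 0.10 (adjusted p = 0.211, edgeR) and 0.16 ± 0.13 (adjusted p = 0.503). Ccl3 passed it when no filter on low counts was used and when only the 6 null libraries were fitted. Ccl3 was at 81.4, 80.9 and 87.6 CPM and 105, 91.1 and 89.6 CPM in null cells and at 87.4, 59.4 and 74.8 and 231, 184 and 254 CPM in wild-type cells, with an interaction of -1.40 (adjusted p = 5.71e-08, edgeR). Of the CXCR3 ligands, Cxcl10 was at 0.614, 0.625 and 0.396 CPM with vehicle and 25, 23.8 and 20.8 CPM with tau, and it alone of the 3 tested passed the test. Cxcl9 had 0, 0 and 3 counts with vehicle and 4, 2 and 5 with tau.

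Most genes of NF-kB itself rose, by small amounts. Of 18 genes for its subunits and feedback inhibitors, 16 rose (background 11.2%) and none fell, with a median of 0.51, and 1 rose by more than 1 log2 unit. Nfkbia, the inhibitor that NF-kB induces to end its own signal, was at 55.1, 52.4 and 62.4 CPM with vehicle and 91.4, 84.9 and 88.4 CPM with tau (0.64 ± 0.07 log2 units, adjusted p = 6.21e-08, edgeR). Tnfaip3, the ubiquitin-editing inhibitor A20, was at 94.3, 95.5 and 92.9 CPM and 124, 131 and 135 CPM, and Nfkbiz, a nuclear cofactor, at 21.4, 19.7 and 23.5 and 28.9, 29.1 and 27.3 CPM. The groups did not overlap in these 3 genes, and the steps of Tnfaip3 and Nfkbiz were 1.38-fold and 1.31-fold. The RNase gene Zc3h12a rose by 0.28 ± 0.08 log2 units, a call that was lost without replicate 1 of the vehicle group (0.21, adjusted p = 0.0916, edgeR). Bcl3, another nuclear cofactor, did not pass the test at 0.20 ± 0.12. The median of the same list in wild-type cells was 0.78, and 6 of the 18 interactions were below 0 (background 3.31%) and 0 above (background 3.61%).

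**Figure D3:**
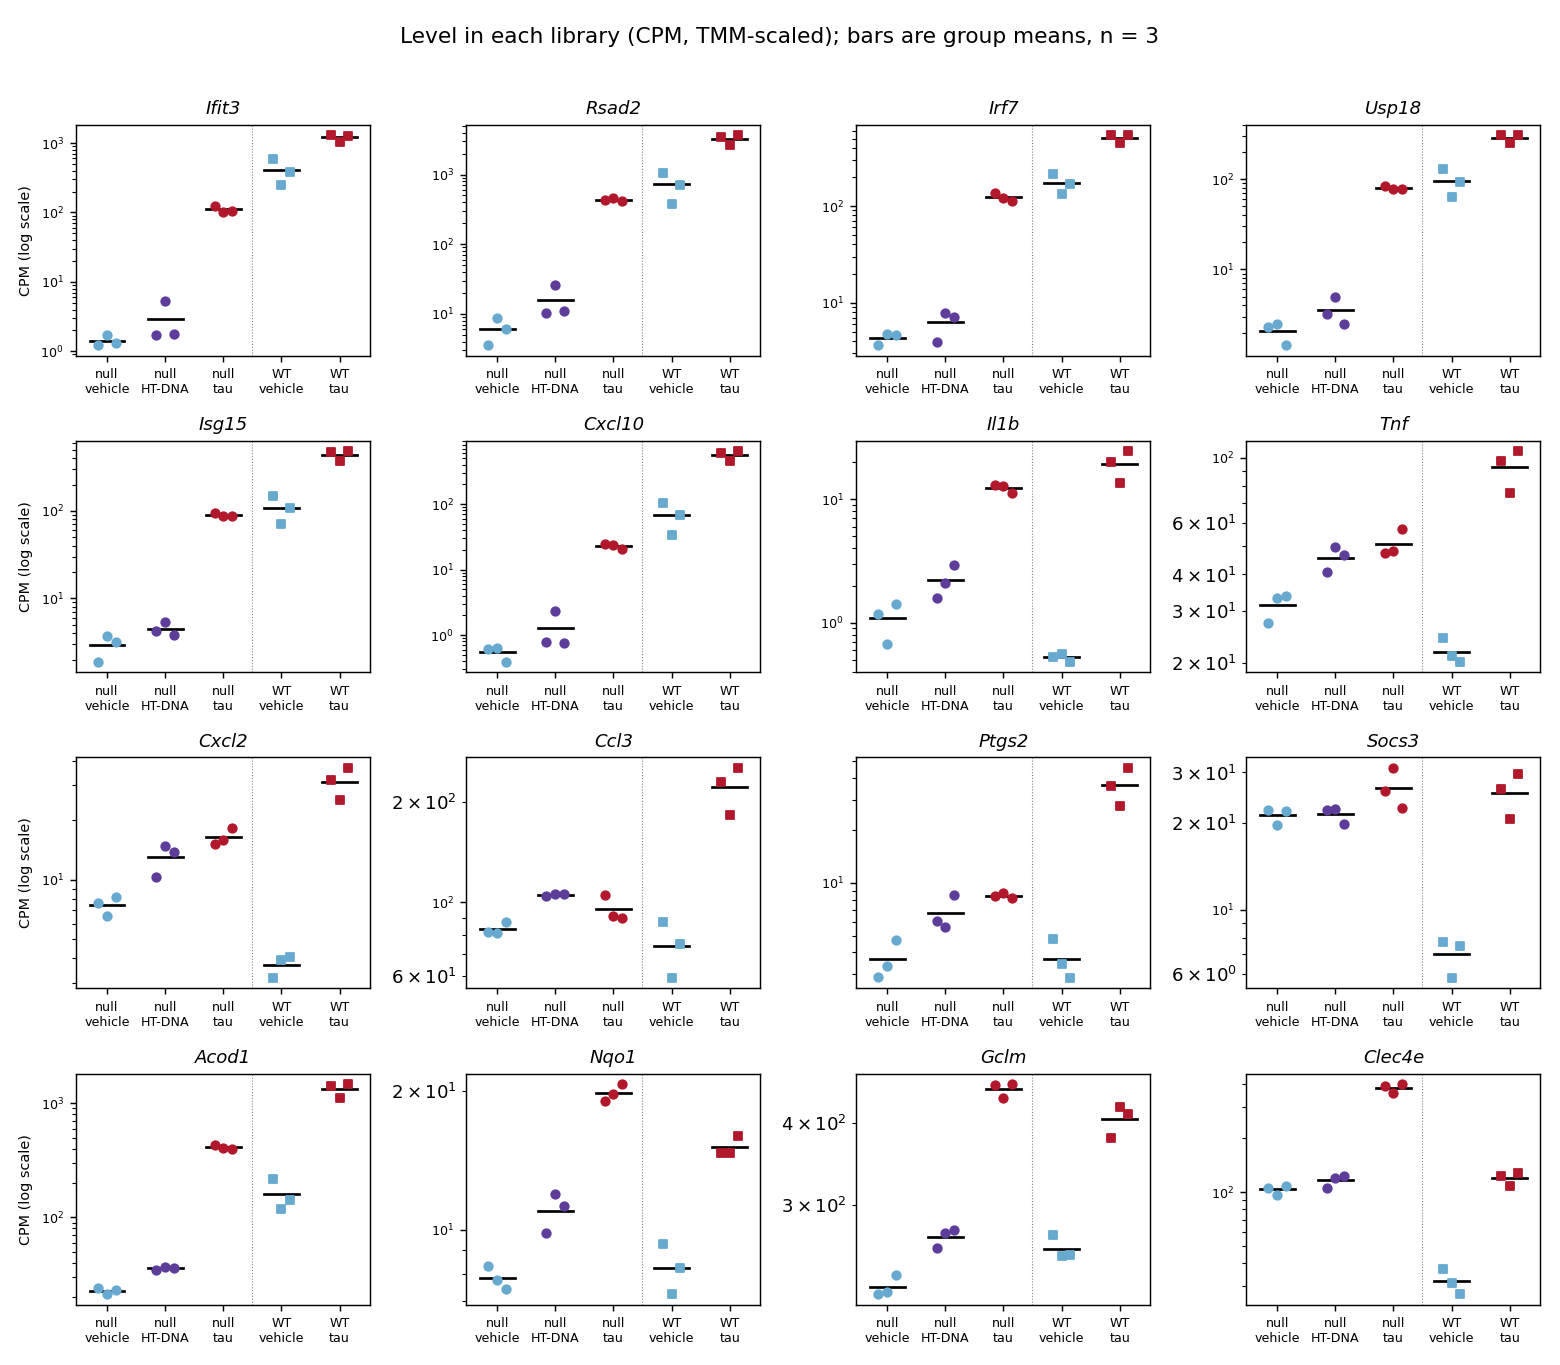
Level of 16 genes in each library (CPM, log axis, 3 points per group, black bars at group means) for null cells with vehicle, HT-DNA or tau (circles) and wild-type cells with vehicle or tau (squares). Ifit3, Rsad2, Irf7, Usp18, Isg15 and Cxcl10 rise with tau in null cells but stay below the highest wild-type library with vehicle, while Tnf, Cxcl2, Ccl3, Ptgs2 and Socs3 show shorter steps in null than in wild-type cells.

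For part of the inflammatory genes, tau and HT-DNA could not be told apart in null cells. Tnf was at 40.6, 49.8 and 46.6 CPM with HT-DNA, and the log2 difference of tau from HT-DNA was 0.15 (adjusted p = 0.353, edgeR). Cxcl2 was at 10.3, 14.7 and 13.9 CPM with HT-DNA (0.33, adjusted p = 0.112) and Ptgs2 at 6.04, 5.58 and 8.57 CPM (0.33, adjusted p = 0.302, edgeR). These 3 genes did not pass the test between the 2 treatments. Il1b did, at 1.59, 2.09 and 2.93 CPM with HT-DNA and 2.46 log2 units higher with tau (adjusted p = 7.64e-10, edgeR), and so did Il12b, at 0.053, 0.0802 and 0.0836 CPM with HT-DNA (adjusted p = 1.01e-11, edgeR). Of the 18 NF-kB genes 10 were higher with tau than with HT-DNA at any fold change (background 10.3%), with a median of 0.32. HT-DNA itself raised some of these genes over vehicle in null cells, Ptgs2 by 0.86 log2 units (adjusted p = 0.0497, edgeR). At any fold change it raised 2 of 3 neutrophil-attracting chemokine genes, 2 of 15 cytokine genes and 2 of 18 NF-kB genes (background 1.04%).

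Most enzyme genes of the activated macrophage rose. Of 11 genes for nitric oxide, arginine, itaconate and prostaglandin metabolism, 9 rose (background 11.2%) and 1 fell, with a median of 1.19. Acod1, which makes itaconate, was at 24.1, 21.2 and 23 CPM with vehicle and 432, 405 and 396 CPM with tau (4.17 ± 0.15 log2 units, adjusted p = 3.41e-18, edgeR). Ptges, a prostaglandin E synthase, was at 4.13, 4.74 and 3.39 CPM and 31.9, 31.6 and 32.9 CPM, and Sod2, the mitochondrial superoxide dismutase, at 95.7, 85.9 and 91.9 and 302, 293 and 302 CPM. Ass1, which regenerates arginine, was at 477, 474 and 481 CPM with vehicle and 958, 964 and 959 CPM with tau. The groups did not overlap in these 4 genes. Nos2, the inducible nitric oxide synthase, had 0, 3 and 0 counts with vehicle and 9, 15 and 37 with tau and was at least 5.43-fold higher. Ptgs2, which encodes cyclooxygenase 2, was at 2.9, 3.34 and 4.71 CPM and 8.47, 8.71 and 8.22 CPM in null cells and 4.79, 3.42 and 2.86 and 35.8, 27.4 and 45.6 CPM in wild-type cells. The gene that fell was Arg1, arginase 1, at 84.1, 99.3 and 88.1 CPM with vehicle and 59.1, 65.1 and 52.5 CPM with tau (-0.62 ± 0.08 log2 units, adjusted p = 5.75e-07, edgeR).

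Most genes for inflammasomes and for MHC class I rose as well. Of 14 inflammasome and necroptosis genes, 10 rose (background 11.2%), with a median of 0.40. Casp4, the caspase that senses cytosolic lipopolysaccharide, was at 20.9, 15.5 and 21 CPM with vehicle and 46.6, 41.2 and 43.5 CPM with tau, and Nlrp3, an inflammasome sensor, at 44.7, 48.2 and 44.7 and 80.4, 80.0 and 84.3 CPM. Neither overlapped between groups. All 14 genes of the MHC class I list rose (background 11.2%), with a median of 0.95. Of these, 5 rose by more than 1 log2 unit (background 2.46%). Tap1, the peptide transporter, was at 32.8, 35.5 and 38.4 CPM with vehicle and 134, 129 and 141 CPM with tau, while the heavy chain gene H2-K1 and the light chain gene B2m rose by 0.43 ± 0.05 and 0.35 ± 0.04 log2 units. H2 genes are close copies of one another, so reads may be split among them. Tap1, the immunoproteasome genes Psmb8 and Psmb9, and Nlrc5 are on both the MHC class I and the interferon-stimulated list. Their rises are therefore counted in both. Of 5 MHC class II genes 1 rose (background 11.2%).

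Ligands that T cells read rose in part. Of 8 costimulatory and checkpoint ligand genes 5 rose (background 11.2%) and 1 fell (background 5.48%). Cd40, a receptor for T cell help, was at 2.23, 2.81 and 2.9 CPM with vehicle and 14.3, 13.9 and 12.9 CPM with tau (2.36 ± 0.18 log2 units, adjusted p = 3.69e-11, edgeR), and Cd274, the checkpoint ligand PD-L1, at 126, 140.1 and 145 and 239, 234 and 229 CPM. Cd86 was at 77.7, 89.5 and 86.7 CPM and 93.2, 82.4 and 82 CPM, with overlap between the groups. Cd83 fell by 0.29 ± 0.08 log2 units.

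Genes of the sensing pathways upstream rose in part. Of 21 Toll-like receptor signaling genes 8 rose (background 11.2%), with a median of 0.08. Tlr2, a receptor for lipoproteins, was at 164, 166 and 169.9 CPM with vehicle and 329.6, 336 and 339 CPM with tau (1.01 ± 0.06 log2 units, adjusted p = 8.31e-14, edgeR), and Irak3, an inhibitor of the pathway, at 11.5, 13.4 and 12.3 and 26.7, 25.9 and 26.1 CPM. Of 8 genes of the cGAS-STING pathway 4 rose (background 11.2%) and 1 fell (background 5.48%). Sting1, the adaptor, was at 22.1, 21.9 and 21.7 CPM with vehicle and 20.6, 22.4 and 23.6 CPM with tau, with overlap between the groups. The kinase gene Tbk1 rose by 0.19 ± 0.04 log2 units, and Enpp1, which degrades the cyclic dinucleotide outside the cell, fell by 0.54 ± 0.08. The reads left at Cgas rose by 0.52 ± 0.14 log2 units (adjusted p = 0.00748, edgeR), a call that was lost without replicate 1 of the vehicle group (0.41, adjusted p = 0.0709). Socs3, an inhibitor of STAT3 signaling, was at 22.2, 19.7 and 22.1 CPM and 25.9, 31.1 and 22.5 CPM in null cells, which did not pass the test (adjusted p = 0.0526, edgeR), and at 7.71, 5.8 and 7.5 and 26.3, 20.7 and 29.6 CPM in wild-type cells. The Socs3 difference in null cells passed it without the filter on low counts, with only the 6 null libraries, and without replicate 3 of the tau group.

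NRF2 is a factor that answers oxidative stress. A list that joins its targets with genes of iron handling and metallothioneins rose in large part. Of 18 NRF2, iron and metallothionein genes 15 rose (background 11.2%) and none fell, with a median of 0.58, and 4 rose by more than 1 log2 unit. Nqo1, a quinone reductase, was at 8.32, 7.77 and 7.43 CPM with vehicle and 19.1, 19.7 and 20.7 CPM with tau (1.34 ± 0.11 log2 units, adjusted p = 1.74e-10, edgeR). Gclm, a subunit of the enzyme that limits glutathione synthesis, was at 219, 221 and 235 CPM and 458, 438 and 459 CPM, and Slc7a11, the cystine importer, at 338, 340.3 and 345 and 716, 737 and 702 CPM. Hmox1, heme oxygenase 1, was at 1153, 1159 and 1169 CPM with vehicle and 1724, 1723 and 1701 CPM with tau. In these 4 genes the groups stood clear of each other. Lcn2, an iron-carrier binding protein, rose by 2.13 ± 0.29 log2 units. The median of the list was 0.65 in wild-type cells, and 2 of 18 interactions were above 0 and 2 below (backgrounds 3.61% and 3.31%). Of the 18, 7 were also higher with HT-DNA than with vehicle in null cells (background 1.04%), Hmox1, Nqo1, Gclm and Slc7a11 among them, so part of the list also answered HT-DNA. The log2 difference of HT-DNA from vehicle was 0.50 for Nqo1 and 0.26 for Hmox1.

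Most immediate early genes, 18 of 23, did not pass the test at 6 h. Of 23 immediate early genes 2 rose (background 11.2%) and 3 fell (background 5.48%) in null cells, with a median of -0.02. Junb had a log2 fold change of -0.06 ± 0.05, and the phosphatase gene Dusp1 was at 29.6, 32.6 and 33.3 and 33.1, 29.4 and 32.1 CPM. Fos was at 14.7, 18.4 and 19.3 CPM and 16, 18.7 and 17.1 CPM. The groups overlapped in these 3 genes, and the sign of each difference turned without 1 or more of the single libraries. In wild-type cells 8 of the 23 rose at any fold change (background 15.8%), and 8 interactions were below 0 (background 3.31%) and none above. Of 14 genes of the unfolded protein and amino acid stress response, 1 rose and 1 fell in null cells (backgrounds 11.2% and 5.48%). Of 20 glycolysis and hypoxia genes 12 rose (background 11.2%), with a median of 0.14. Of 24 cholesterol genes 6 rose (background 11.2%) and 1 fell (background 5.48%).

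Most genes that mark microglial states did not pass the test, 12 of 18 homeostatic and 13 of 22 disease-associated ones. Of 18 homeostatic microglia genes 3 rose and 3 fell, with a median of -0.03, and of 22 disease-associated microglia genes 3 rose and 6 fell, with a median of -0.03. Over all genes 11.2% rose and 5.48% fell. P2ry12, a purine receptor of resting microglia, was at 7.87, 5.89 and 5.06 CPM with vehicle and 5.95, 4.86 and 5.83 CPM with tau, and Tmem119 at 13.3, 11.1 and 10.6 and 15.5, 12.9 and 14.1 CPM. Neither passed the test, and the groups overlapped, although Tmem119 passed it as higher with tau without replicate 1 of the vehicle group and without replicate 2 of the tau group (0.39 and 0.35 log2 units). Apoe, which carries lipids, fell by 0.12 ± 0.03 log2 units (adjusted p = 0.00333, edgeR). The receptor gene Trem2 was at 987, 965 and 1085 CPM and 979, 963 and 989.7 CPM, with overlap between the groups. Cst7, a cystatin, was at 69.7, 84.5 and 77.7 CPM and 86, 93.1 and 85.4 CPM, which did not pass the test (adjusted p = 0.0531, edgeR) but did without the filter on low counts, with only the 6 null libraries, and without replicate 2 of the vehicle group. Spp1, osteopontin, fell by 0.10 ± 0.03 log2 units, a call that was lost with only the 6 null libraries in the fit and without replicate 1 or 2 of the vehicle group or replicate 2 of the tau group.

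Genes for uptake receptors, complement and proteases changed in both directions. Of 16 scavenger and uptake receptor genes 6 rose (background 11.2%) and 3 fell (background 5.48%). The same backgrounds hold for the other lists of this paragraph. Marco, a scavenger receptor for polyanions, was at 6.75, 8.18 and 6.6 CPM with vehicle and 29.6, 28.2 and 24.9 CPM with tau (1.94 ± 0.11 log2 units, adjusted p = 3.06e-14, edgeR). Clec4e, the glycolipid receptor Mincle, was at 106, 96.6 and 108 CPM and 393, 356 and 401 CPM, and Olr1, a receptor for oxidized lipoprotein, at 42.4, 48.2 and 47.1 and 103, 119.9 and 112 CPM. No group overlapped in these 3 genes. Of 13 complement genes 3 rose and 2 fell, and C3, the central component, was at 35.2, 29.5 and 27 CPM with vehicle and 97, 103 and 90.0 CPM with tau, while Cfb rose from 4, 5 and 2 to 17, 20 and 26 counts. Of 11 protease genes 4 rose and 3 fell. The gelatinase gene Mmp9 was at 4.19, 4.9 and 4.97 CPM and 11.5, 12 and 13.2 CPM in null cells, against 3.15, 1.38 and 2.43 and 2.78, 2.65 and 2.33 CPM in wild-type cells (interaction 1.21, adjusted p = 0.0332, edgeR). The collagenase gene Mmp13 showed the other order, at 70.4, 61.1 and 66.9 CPM and 68.4, 65.3 and 68.7 CPM in null cells and 161, 134 and 146 and 295, 263 and 309.7 CPM in wild-type cells (interaction -0.95, adjusted p = 1.72e-08, edgeR). Of 5 Fc receptor genes 2 rose and 1 fell, and of 21 lysosomal genes 4 rose and 5 fell.

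Falls of more than 1 log2 unit were fewer than rises, and those named by size, apart from Hpgd, had at most 124 counts in each null library. Of 22 cell cycle genes none rose and 11 fell (background 5.48%), with a median of -0.43, and the median in wild-type cells was -0.47. The 15 largest falls by the naming rule included the replication and repair genes Cdc6, Clspn and Ddias and the mitotic genes Cit and Kif14. Hpgd, which degrades prostaglandins, was the most abundant of the 15, at 24.8, 20.8 and 23.8 CPM with vehicle and 12.2, 10.6 and 11.1 CPM with tau (-1.04 ± 0.12, adjusted p = 1.71e-07, edgeR). The transporter gene Slco2b1 was at 1.73, 1.93 and 1.76 CPM and 0.573, 0.545 and 0.704 CPM, Nrep at 5.86, 5.63 and 5.45 and 2.2, 2.43 and 1.68 CPM, and Batf3, a factor of dendritic cell development, at 4.8, 4.07 and 3.78 and 2.12, 1.47 and 2.15 CPM. The heparan sulfate enzyme gene Hs3st1 had the largest fall among the named genes, -1.89 ± 0.51 log2 units, on 3 to 34 counts per library. Also among them were 2610318N02Rik, Gm12174, Gm10575 and A130077B15Rik, with log2 fold changes of -1.13, -1.48, -1.09 and -1.07. Leaving out single libraries ended the call for Hs3st1, Cdc6, 2610318N02Rik, Kif14, Gm10575, A130077B15Rik and Ddias. Mki67, a marker of dividing cells, was at 20.3, 18.1 and 16.2 CPM and 14, 16.6 and 17.7 CPM, with overlap between the groups.

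The response of null cells was set against that of wild-type cells gene by gene. In wild-type cells 395 genes rose by more than 1 log2 unit (2.89%), and 230 genes rose so in both genotypes, which is 68.5% of the 336 in null cells and 58.2% of the 395 in wild-type cells. Of the 336, 303 also rose in wild-type cells when any fold change was counted. Across the 13675 genes the 2 log2 fold changes had a Pearson correlation of 0.57 and a Spearman correlation of 0.45, a description over genes that are not independent replicates. The interaction of genotype and tau passed the test above 0 for 493 genes (3.61%) and below 0 for 452 (3.31%). Without replicate 1 of the wild-type tau group the count above 0 was 318, without replicate 3 it was 322, and the count below 0 was 267 without replicate 3. By the naming rule, the most positive interactions were those of Ifit3, Gm5970, Rtp4, Ifit1 and Gm4951, and the most negative were those of Cxcl1, Flt4, Mkx, St8sia1 and Ptgs2. Rtp4 had an interaction of 4.52 ± 0.23 (adjusted p = 1.99e-13, edgeR), and Ptgs2 one of -2.09 ± 0.30 (adjusted p = 3.26e-05). Cxcl1 had no read in the wild-type vehicle libraries, so its interaction depends on the prior count, as does that of Gm5970, which had none in the null vehicle libraries. Flt4, Mkx and St8sia1 stayed under 4 CPM in every library of both genotypes.

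**Figure D4:**
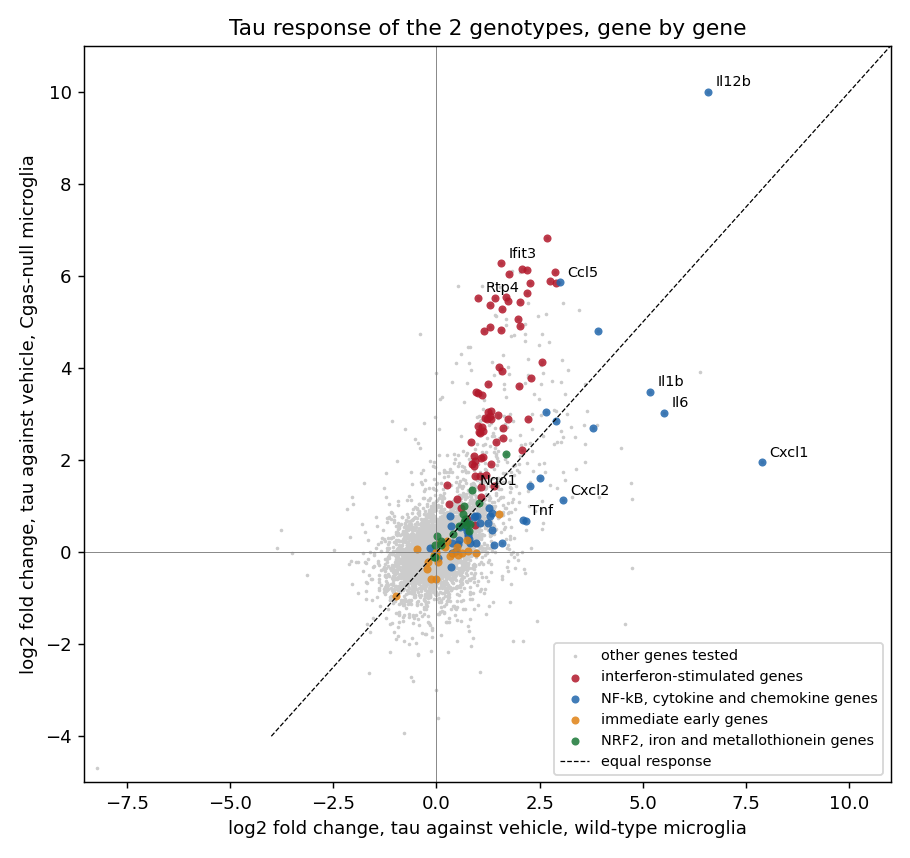
Log2 fold change of tau against vehicle in null cells (vertical axis) and wild-type cells (horizontal axis) for the 13675 genes tested, with 4 groups of lists in color and the line of equal response dashed. Nearly all interferon-stimulated genes lie above the line, and most NF-kB, cytokine, chemokine and immediate early genes lie below it. Genes of the NRF2, iron and metallothionein list lie on both sides. Fold changes of genes at the counting floor, such as Il12b and Cxcl1, depend on the prior count.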

How the data were processed

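Primary microglia were profiled in 18 libraries in 6 groups of 3 (Cgas+/+ or Cgas-/-, with vehicle, tau or HT-DNA), and the hippocampal libraries of the series were not used here. The deposited table holds raw read counts per Ensembl gene, 1 column per library, with no normalization. The labels name a 3′ mRNA library kit, so counts come from transcript ends, and the submitters' processing notes name GRCm38, edgeR and limma without their roles. The aligner, counter and annotation are not given in the sources used here. Gene symbols are those paired with the identifiers in the deposited file, with Mb21d1 and Tmem173 written as Cgas and Sting1.

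Genes were kept by edgeR's filterByExpr over the 6 groups, leaving 13675 of 54532. Counts were scaled by TMM and fitted with edgeR 4.0.16 in R 4.3.3 (glmQLFit and glmQLFTest, 1 mean per group, all 18 libraries). Contrasts gave tau against vehicle, tau against HT-DNA, the genotypes within a treatment, and the interaction of genotype and tau. Standard errors are the log2 fold change over the square root of F, and p-values are Benjamini-Hochberg adjusted over all genes tested. A gene was called at an adjusted p under 0.05, with a log2 fold change beyond 1 where stated. Genes with at most 3 counts in every vehicle library are given as lower bounds against 3 counts per library, which cover counting error only. Total counts per null vehicle and tau library were 17037459 to 25174764.

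Named genes were the 15 largest rises and falls among called genes whose groups did not overlap and whose higher group averaged 20 counts or more, list members, and the 5 most positive and 5 most negative interactions with a mean count of at least 20. Some items that meet this rule are not reported here. The members and lists were chosen with earlier results of these data known. Replicates within the vehicle and tau groups of null cells differed beyond counting noise (chi-square per degree of freedom 3.74 to 6.92), so none was counted as a repeat. Alternatives were DESeq2 1.42.0, RLE size factors, no filter on low counts, only the compared groups, a replicate block, and leaving out each library. The comparison of gains in mean CPM, the contrasts between genotypes and the counts over the interferon list under each setting were added after the data were seen. Scripts were tested on simulated counts. Promoter sequences came from RefSeq on GRCm38.p6.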

Additional observations from a re-analysis of the deposited data

Results flagged for a closer look

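The tau response differed between null and wild-type cells by the interaction test for the genes below, which come from the same 12 libraries and are given as log2 interaction values (null minus wild type, edgeR, adjusted p under 0.05). Over all genes tested, the interaction was above 0 for 493 and below 0 for 452.

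Values above 0 were led by interferon-stimulated genes. They were 4.72 for Ifit3, 4.52 for Rtp4, 4.30 for Ifit1 and 4.09 for Ifit2. They were 3.94 for Rsad2, 3.86 for Ifit3b, 3.73 for Mx1, 3.70 for Usp18 and 3.57 for Cmpk2. They were 3.26 for Irf7, 3.23 for Ifi205, 3.16 for Oasl1, 2.95 for Gbp5 and 3.42 for Ifit1bl1. They were 2.89 for Isg15, 2.87 for Ccl5, 2.51 for Zbp1, 2.36 for Cxcl10 and 1.74 for Ddx58. For Gm5970 (4.67), Gm4951 (4.27), Iigp1 (4.15) and Ifi213 (4.06) null cells with vehicle were at the counting floor, so these values depend on the prior count. Ifit1bl1, Ifit3b, Ifi205 and Oasl1 had 1 to 8 counts in each null vehicle library. Their values are therefore less certain (SE 0.98, 0.80, 0.73 and 0.56). Smaller values above 0 were 1.21 for Mmp9, 1.12 for Acod1, 0.85 for Tmem119, 0.77 for Marco, 0.61 for Tap1, 0.35 for Gclm and 0.15 for Spp1.

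Values below 0 are given for genes named in this report, and these included cytokine, chemokine and early response genes. Among these were -2.09 for Ptgs2, -1.94 for Cxcl2, -1.69 for Il1b, -1.56 for Socs3, -1.40 for Ccl3 and -1.40 for Tnf. Cd40 was at -1.25, Ccl4 at -1.24, Mmp13 at -0.95, Il1a at -0.88 and Bcl3 at -0.76. Cd274 was at -0.74, Dusp1 at -0.63, Nfkbia at -0.62, Cd86 at -0.59 and Junb at -0.57. Cd83 was at -0.56, Zc3h12a at -0.50, Fos at -0.43, Atf3 at -0.42 and Nfkbiz at -0.36. Tlr2 was at -0.35, Psmb10 at -0.34 and Tbk1 at -0.28. Genes with few reads were Cxcl1 (-5.93), Flt4 (-3.94), Mkx (-2.59), St8sia1 (-2.55) and Gm12174 (-1.99). Of all values named here, those of Cxcl1, Flt4, Mkx and St8sia1 were the most negative. The genotypes also differed with vehicle, as given beside the genes in the report, and other differences between the cultures of the 2 genotypes, the shares of male and female cells included, cannot be told apart from the genotype. No group held more than 3 libraries, so single libraries were not tested as outliers.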

How the results depend on the processing

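The number of genes that rose by more than 1 log2 unit was 327 with DESeq2, 331 with RLE size factors and 354 without the filter on low counts. Leaving out single libraries gave 326 to 335 such genes, 21 to 45 that fell (21 without replicate 1 of the null vehicle group), 1286 to 1541 that rose and 539 to 747 that fell at any fold change. The same gave 318 to 606 interactions above 0, with 318 and 322 without replicates 1 and 3 of the wild-type tau group, and 267 to 525 below 0, with 267 without replicate 3 of that group. Tau against HT-DNA gave 310 to 330 higher and 23 to 31 lower genes, and 35 lower genes without the filter. The cause of these shifts was not tested. All 69 interferon-stimulated genes rose under each alternative run, and 56 to 64 had a larger log2 response in null cells, but only 2 had a larger gain in mean CPM, so the order of the genotypes depends on the scale.

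Deviations of same-numbered vehicle and tau libraries of null cells from their group means had correlations of 0.0352, -0.00893 and 0.0660. Those of differently numbered libraries ran from -0.0688 to 0.0314. With 3 libraries a group, these values cannot show whether same-numbered libraries share a culture or litter. With the replicate block, 335 genes rose and 33 fell by more than 1 log2 unit, 1511 rose and 734 fell at any fold, 477 interactions lay above 0 and 444 below, and 322 genes were higher and 20 lower than with HT-DNA.

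Of 1172 alternative values for 107 genes, 1123 kept their direction and their side of the threshold, 26 lost the call, 10 gained it and 13 changed sign. The changes of sign came without single libraries. Over the libraries left out, the log2 fold change was 0 to 2.19 for Ifnb1, -0.0434 to 0.0604 for Cd86 (also -0.0378), -0.126 to 0.0595 for Fos (also 0.0117 and 0.0267), -0.0934 to 0.0190 for Junb, -0.0658 to 0.0298 for Dusp1 (also 0.0167), -0.0226 to 0.0745 for Mmp13, -0.306 to 0.0239 for P2ry12, -0.0837 to 0.00266 for Trem2 and -0.0252 to 0.0699 for Sting1. With 3 libraries a group, small differences and genes with few reads are the least certain.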
